A study of Mus musculus with 4 samples.

Results

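Most of the 43 genes described here encode the proteins that build peroxisomes and the enzymes and transporters through which peroxisomes oxidise and make lipids. All 43 were chosen by symbol from the 19030 genes of the table. They were the *Pex*, *Acox* and *Abcd* genes, and named genes of β-oxidation, α-oxidation, ether lipid synthesis, solute transport and hydrogen peroxide breakdown. The rule uses no measured value. RNA was taken from the inguinal fat pad (ingWAT), which lies under the skin and is white adipose tissue, of 3-month-old C57BL/6 mice kept in the cold at 4°C. Ctrl mice carried *Oct3* with loxP sites (*Oct3* fl/fl), and cKO mice carried the same alleles and an Adiponectin-Cre transgene, which deletes *Oct3* in adipocytes but leaves it in the other cells of the depot. Both genotypes were cold-exposed and no library came from warm mice. There were 2 libraries per genotype, the number of mice behind a library is not stated in the sources used here, and p-values measure the spread between these libraries, which may be technical.

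Peroxisomes are organelles bounded by a single membrane that shorten fatty acids too long or too branched for mitochondria, pass the shortened chains on, and break down the hydrogen peroxide that their oxidases release. Proteins called peroxins, encoded by the *Pex* genes, insert the membrane proteins, import the enzymes from the cytosol and divide the organelle. Peroxisomes are abundant in brown fat, and several of their β-oxidation genes are classical targets of PPARα, a nuclear receptor that binds fatty acids and acts as a pair with an RXR receptor.

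*Oct3* (symbol *Slc22a3*), the catecholamine transporter deleted in cKO adipocytes, had an FPKM (fragments sequenced from a gene, scaled by transcript length and library size) of 17.0 and 17.7 in the Ctrl libraries and of 9.07 and 9.50 in the cKO libraries. The genotypes did not overlap, and the log2 fold change was -0.83 ± 0.07 (SE, adjusted p = 0.000439). The estimated depth was 17400000 to 18150000 reads per library. A mean FPKM of 1 or more was required for testing. Of 12658 such genes, 3269 (25.8%) passed an adjusted p of 0.05 by limma on log2(FPKM + 1). Of all genes tested, 12.0% were higher and 13.8% lower in cKO, and the median log2 fold change was -0.01. In 31.9% of the genes both cKO libraries lay above both Ctrl libraries, and in 34.6% both lay below. Markers of other cells differed too. Summed FPKM of 13 skeletal muscle markers was 2769 and 1888 in Ctrl against 49.6 and 48.6 in cKO, and all 11 that were tested fell. Of 12 brown and beige adipocyte markers 11 rose, with sums of 1662 and 1990 against 5262 and 4468. Of 12 white adipocyte markers 7 fell and none rose, with *Adipoq*, which encodes adiponectin, at -0.58 and *Plin1*, which coats lipid droplets, not past the threshold at -0.07. Of 8 B cell markers 7 rose and of 7 T cell markers 6 rose. Of 7 neutrophil and monocyte markers 6 rose, of 8 fibroblast progenitor markers 6 fell, and of 6 endothelial markers 3 fell. Macrophage markers split into 2 higher and 3 lower of 8. The 1 keratinocyte marker that was tested did not pass, and 4 mammary epithelial markers summed to 1.22 to 1.71 FPKM. In bulk tissue fewer cells of a type and less RNA per cell cannot be told apart, and the part of these markers in the values below was not tested.

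Promoters of 4 enzyme genes are shown because these genes moved in opposite directions in cKO ingWAT: *Ehhadh* and *Phyh* rose, and the thiolase genes *Acaa1a* and *Acaa1b* fell. Each stretch is from RefSeq, build GRCm38.p6, read 5′ to 3′ along the gene from 250 bases before a listed start to 50 bases after it. For *Acaa1a* the start used lies inside the gene, whose coordinates begin at chr9:119341028, so that the whole printed stretch is within the gene. Capitals mark the nuclear receptor half-site AGGTCA, which PPAR and RXR bind as a repeat, or the CCAAT box, a general promoter element, on either strand.
*Ehhadh* promoter, chr16:21787785-21788084, minus strand: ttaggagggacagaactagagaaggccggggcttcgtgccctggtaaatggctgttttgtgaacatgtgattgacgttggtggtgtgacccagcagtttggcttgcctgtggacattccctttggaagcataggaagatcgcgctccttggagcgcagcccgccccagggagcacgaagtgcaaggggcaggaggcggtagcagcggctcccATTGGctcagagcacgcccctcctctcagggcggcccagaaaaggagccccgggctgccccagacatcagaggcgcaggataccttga
*Phyh* promoter, chr2:4918746-4919045, plus strand: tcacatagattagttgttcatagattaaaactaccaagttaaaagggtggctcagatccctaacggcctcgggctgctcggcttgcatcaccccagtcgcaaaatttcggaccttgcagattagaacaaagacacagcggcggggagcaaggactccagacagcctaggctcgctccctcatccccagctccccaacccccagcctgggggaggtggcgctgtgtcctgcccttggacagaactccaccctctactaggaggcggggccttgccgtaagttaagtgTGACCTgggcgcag
*Acaa1a* promoter, chr9:119341044-119341343, plus strand: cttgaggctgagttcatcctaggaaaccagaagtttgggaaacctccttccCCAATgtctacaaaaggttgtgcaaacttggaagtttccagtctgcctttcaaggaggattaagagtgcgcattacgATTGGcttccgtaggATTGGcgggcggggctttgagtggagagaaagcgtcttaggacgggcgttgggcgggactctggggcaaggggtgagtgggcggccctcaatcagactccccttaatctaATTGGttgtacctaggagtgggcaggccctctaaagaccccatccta
*Acaa1b* promoter, chr9:119157044-119157343, minus strand: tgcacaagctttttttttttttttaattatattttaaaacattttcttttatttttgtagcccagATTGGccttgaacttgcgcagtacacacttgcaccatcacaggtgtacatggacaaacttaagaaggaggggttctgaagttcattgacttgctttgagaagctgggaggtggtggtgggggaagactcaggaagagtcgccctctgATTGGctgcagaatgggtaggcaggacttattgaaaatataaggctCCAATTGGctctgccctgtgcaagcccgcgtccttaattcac
Of the 43 genes, 30 matched the promoter table, with 35 promoters between them. AGGTCA on either strand stood in 4 of the 35 (11.4%), those of *Cat*, *Pex11g*, *Phyh* and *Scp2*, against 16.3% of all 32851 promoters of the same length. The direct repeat AGGTCANAGGTCA stood in 0 of the 35 and in 0.0396% of all promoters, and the looser AGGNCANAGGNCA, which includes the former, in 0 and in 0.381%. CCAAT stood in 16 of the 35 (45.7%) against 37.4% of all promoters. In the printed promoters it stood in *Ehhadh*, which rose, and in *Acaa1a* and *Acaa1b*, which fell. The printed promoters were few and chosen by direction, and a link of CCAAT with direction was not tested. These are matches of letters in a short window and say nothing of binding.

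Of the 43 genes, 41 passed the filter on low values, and 12 of those 41 (29.3%) passed the threshold in the comparison of cKO with Ctrl. The share over all genes tested was 25.8%, so that the number called was near the background. Split by direction, 8 rose (19.5%, against 12.0% of all genes) and 4 fell (9.76%, against 13.8%). Both cKO libraries lay above both Ctrl libraries in 15 of the 41 genes, against 31.9% of all genes tested. They lay below in 12, against 34.6%, so that both counts were near the background, and the genotypes overlapped in 14. The median log2 fold change was 0.04 against -0.01 over all genes, and 38 of the 41 differed by less than 0.5 on the log2 scale. The genes that rose were *Ehhadh*, *Ech1*, *Abcd3*, *Amacr*, *Phyh*, *Hacl1*, *Pex6* and *Pex5*. Those that fell were *Abcd2*, *Pxmp2*, *Acaa1b* and *Acaa1a*. The number rested on the libraries used and on the filter on low values, without which 3 of the 12 passed (*Abcd2*, *Pxmp2* and *Ehhadh*). Without Ctrl replicate 1, *Abcd2* and *Pxmp2* were the 2 genes of the 43 that passed, and the median was -0.01. The calls were 4 higher and 2 lower without Ctrl replicate 2, 2 and 3 without cKO replicate 1, and 3 and 3 without cKO replicate 2. *Abcd2* and *Pxmp2* remained past the threshold in each of 11 alternative analyses and *Ehhadh* in 10.

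**Figure D1:**
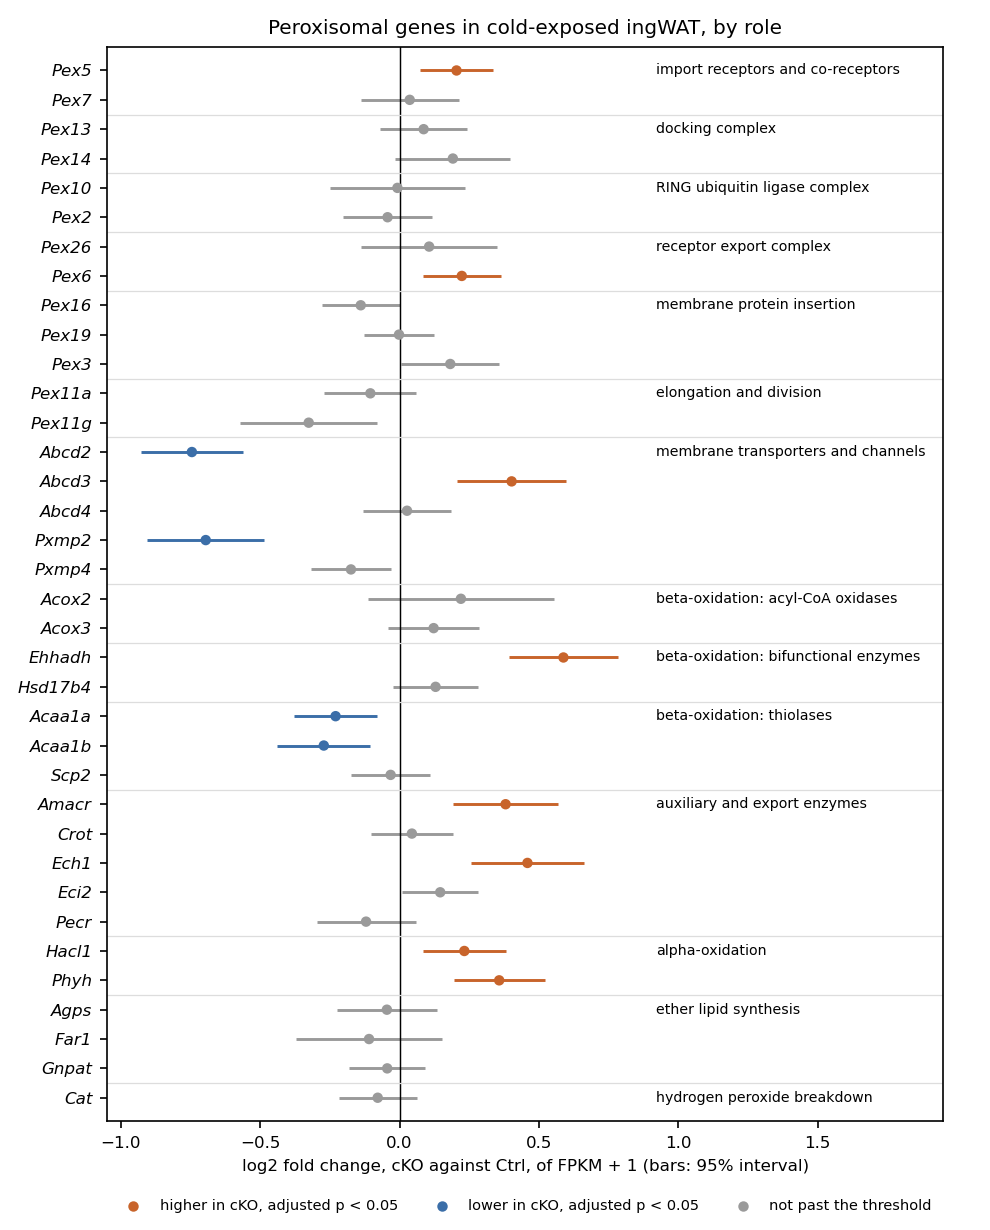
The log2 fold change of cKO against Ctrl (horizontal axis, log2 of FPKM + 1) is plotted for 36 of the 41 genes tested, grouped by role, with 95% limma intervals as bars. *Abcd2* (-0.74) and *Pxmp2* (-0.70) lie far to the left, *Ehhadh* (0.59) and *Ech1* (0.46) to the right, and the peroxins shown lie between -0.33 and 0.22.

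Levels were unequal among the genes. *Ech1*, which moves double bonds in unsaturated acyl-CoAs and is found in peroxisomes and mitochondria, made up 18.5% of the summed FPKM of the 43 genes over the 4 libraries. *Cat*, which breaks down hydrogen peroxide, made up 11.8%, and *Scp2*, a thiolase and sterol carrier, 11.6%. Summed FPKM of all 43 genes was 2862 and 2961 in Ctrl and 3108 and 3050 in cKO, a mean difference of 5.76%. Without *Ech1* the sums were 2420 and 2473 in Ctrl and 2432 and 2446 in cKO, a difference of -0.286%, and the genotypes overlapped. The total was thus higher in cKO by the amount of 1 gene. With 2 libraries against 2 an exact two-sided permutation test cannot give a p below 0.333, the value for the sum over all 43 genes.

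Differences were small among the peroxins. Of 17 *Pex* genes 16 were tested, 2 rose and 0 fell, a share of 12.5% against 12.0% of all genes called higher, and 4 of the 16 had an unadjusted limma p under 0.05, as did 4873 of the 12658 genes tested, a larger share. Their median log2 fold change was 0.05, and their summed FPKM was 477.3 and 468.9 in Ctrl and 483.5 and 476.5 in cKO, with the genotypes overlapping. Among the 14 that did not pass, the 95% intervals lay between -0.57 and 0.40, and 13 of them lay within 0.5 of 0 on the log2 scale. *Pex5l*, a relative of the import receptor gene, was not tested, at 0.42, 0.27, 0.16 and 0.20 FPKM in Ctrl 1, Ctrl 2, cKO 1 and cKO 2, or an estimated 3.20 to 27.3 reads.

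The 2 peroxins that rose, a share near that of all genes, serve the cycle of matrix protein import, as do most *Pex* genes. *Pex5*, the receptor that carries most matrix enzymes to the membrane, was at 35.8 and 34.8 FPKM in Ctrl and at 40.8 in both cKO libraries (log2 fold change 0.20 ± 0.05 SE, adjusted p = 0.0337). *Pex6*, one of the ATPases that pull the receptor back out, was at 29.5 and 27.9 FPKM in Ctrl and at 33.2 and 34.2 in cKO (0.22 ± 0.06, adjusted p = 0.0327). The genotypes did not overlap for either gene, but both lost the call in 6 of 11 alternatives, among them each analysis that left out a library. *Pex7*, the receptor for a smaller set of enzymes, had a log2 fold change of 0.04 with overlapping genotypes. *Pex13* and *Pex14*, at which loaded receptors dock, had 0.09 and 0.19, and in *Pex14* both cKO libraries (42.6 and 37.2 FPKM) lay above both Ctrl libraries (36.9 and 32.6) without passing (adjusted p = 0.155). *Pex26*, the membrane anchor of *Pex6*, had 0.11. *Pex2* and *Pex10*, ubiquitin ligases that mark the receptor, had log2 fold changes of -0.04 and -0.01, and their summed FPKM was 28.9 and 28.6 in Ctrl and 27.5 and 28.6 in cKO. Signs this close to 0 turned with the scaling: *Pex10* was 0.01 under median-of-ratios scaling and 0.03 under quantile normalization.

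The peroxins of membrane assembly and division showed no gene past the threshold. *Pex19*, the chaperone of new membrane proteins, was at 81.4 and 82.7 FPKM in Ctrl and 82.9 and 80.9 in cKO (95% interval of the log2 fold change, -0.13 to 0.12). *Pex3* and *Pex16*, its docking partners in the membrane, had 0.18 (adjusted p = 0.120) and -0.14 (adjusted p = 0.130), with genotypes that did not overlap in either gene. Of the *Pex11* genes, which elongate the organelle ahead of division, *Pex11a* had a log2 fold change of -0.10. *Pex11g* was at 12.1 and 11.0 FPKM in Ctrl and at 10.0 and 8.08 in cKO, a log2 fold change of -0.33 ± 0.10 (SE, adjusted p = 0.0589). It passed the threshold without cKO replicate 1 (adjusted p = 0.0307), under a mean FPKM filter of 5 (adjusted p = 0.0304) and with the replicate number as a block (adjusted p = 0.0169). Of the 50-base stretches of its transcript 47.8% are shared with *Gm44775*, annotated on the opposite strand, so that its value is uncertain.

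The membrane transporters held the widest spread of any role, from -0.74 to 0.40. The *Abcd* genes encode transporters that work as paired subunits, and most of them bring acyl-CoAs into the peroxisome. *Abcd2* (chr15:91145871-91192007, GRCm38.p6), which takes very long-chain and polyunsaturated acyl-CoAs, was at 93.5 and 91.2 FPKM in Ctrl and at 50.7 and 58.9 in cKO. Both cKO libraries lay far below both Ctrl libraries, with a log2 fold change of -0.74 ± 0.08 (SE, adjusted p = 0.0011). It passed in all 11 alternatives, where the log2 fold change ran from -0.85 to -0.64. An estimated 4851 to 9325 reads per library stood behind it, and 0.657% of the 50-base stretches of its transcript were shared with other genes.

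*Abcd3*, the transporter of branched-chain and dicarboxylic acyl-CoAs and a common marker of the peroxisomal membrane, went the other way. It was at 52.6 and 62.2 FPKM in Ctrl and at 76.6 and 75.1 in cKO (log2 fold change 0.40 ± 0.08 SE, adjusted p = 0.0123), and the genotypes did not overlap. The call was lost in 4 of 11 alternatives, which included leaving out Ctrl replicate 1, cKO replicate 1 or cKO replicate 2. *Abcd4*, whose product acts in lysosomal cobalamin export rather than in peroxisomes, was at 9.64 to 10.1 FPKM in the 4 libraries, with a log2 fold change of 0.03.

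The order of *Abcd2* and *Abcd3* was thus exchanged. The ratio of *Abcd2* to *Abcd3* FPKM was 1.78 and 1.47 in the Ctrl libraries and 0.662 and 0.785 in the cKO libraries. In Ctrl *Abcd2* was the more abundant gene, and in cKO *Abcd3* was. The ratio did not overlap between genotypes, and the exact permutation p was 0.333, the smallest that 2 libraries against 2 allow. As the genes separated in opposite directions, their ratio had to separate too, and it adds no evidence to the values above.

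**Figure D2:**
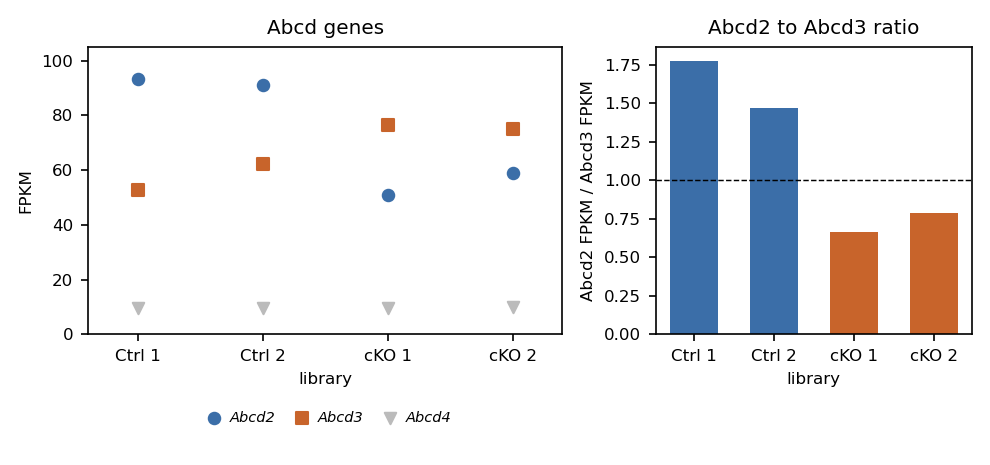
On the left, FPKM of *Abcd2*, *Abcd3* and *Abcd4* is plotted in each of the 4 libraries, and on the right the ratio of *Abcd2* to *Abcd3* FPKM is drawn as bars from 0, with a dashed line where the genes are equal. The ratio is above 1 in both Ctrl libraries (1.78 and 1.47) and below 1 in both cKO libraries (0.662 and 0.785).

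Of the other membrane proteins, *Pxmp2* (chr5:110274286-110286222), which forms a channel for small solutes, was at 32.2 and 34.0 FPKM in Ctrl and at 18.3 and 21.9 in cKO. It fell by 0.70 on the log2 scale (SE 0.09, adjusted p = 0.00206), passed in all 11 alternatives (range -0.82 to -0.57) and rested on an estimated 320.4 to 619 reads per library. Its exons overlap those of *Gm15788* on the opposite strand over 129 bases, and 8.27% of its 50-base stretches are shared with that gene. *Pxmp4*, another peroxisomal membrane protein of the same naming series, was at 55.7 and 53.3 FPKM in Ctrl and at 46.7 and 49.7 in cKO (-0.17 ± 0.06, adjusted p = 0.0742). The ratio of *Pxmp2* to *Pxmp4* was 0.579 and 0.637 in Ctrl and 0.392 and 0.441 in cKO. Summed over these 5 transporter and channel genes, FPKM was 243.7 and 250.3 in Ctrl and 202.1 and 215.8 in cKO, a difference of -15.4%.

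Peroxisomal β-oxidation runs through an acyl-CoA oxidase, a bifunctional hydratase and dehydrogenase, and a thiolase. The 7 genes of these steps named below summed to 688.6 and 700.5 FPKM in Ctrl and to 687.2 and 703.9 in cKO, a difference of 0.136% with overlapping genotypes (exact permutation p = 1.0). Within this total 1 gene rose and 2 fell, where 12.0% of all genes tested rose and 13.8% fell. *Acox3*, an oxidase for branched chains, had a log2 fold change of 0.12 (adjusted p = 0.242). *Acox2*, which acts on bile acid precursors, was near the detection filter at 0.81, 0.91, 1.38 and 0.97 FPKM in Ctrl 1, Ctrl 2, cKO 1 and cKO 2, an estimated 35.4 to 68.9 reads.

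At the second step *Ehhadh* (chr16:21761285-21787834), the L-bifunctional enzyme, was at 37.5 and 41.3 FPKM in Ctrl and at 55.6 and 64.0 in cKO. Both cKO libraries lay above both Ctrl libraries, with a log2 fold change of 0.59 ± 0.08 (SE, adjusted p = 0.00305), the largest rise of the 41 genes. It lost the call only without Ctrl replicate 1 (adjusted p = 0.052) among 11 alternatives, and none of the 50-base stretches of its transcript was shared with another gene. *Hsd17b4*, the D-bifunctional enzyme of the same step, was at 122.7 and 134.6 FPKM in Ctrl and at 140.3 and 140.9 in cKO (0.13, adjusted p = 0.187). The ratio of *Ehhadh* to *Hsd17b4* was 0.306 and 0.307 in Ctrl and 0.396 and 0.454 in cKO. *Hsd17b4* was thus the more abundant gene in all 4 libraries.

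At the third step the classical thiolase genes fell. *Acaa1a* was at 108.2 and 99.9 FPKM in Ctrl and at 90.3 and 86.8 in cKO (log2 fold change -0.23 ± 0.06 SE, adjusted p = 0.0352). *Acaa1b* was at 58.3 and 53.2 FPKM in Ctrl and at 44.1 and 47.9 in cKO (-0.27 ± 0.07, adjusted p = 0.0297). The genotypes did not overlap in either gene. They are paralogs close to each other on chromosome 9, and 583 of their 50-base stretches, 34.0% of those of *Acaa1a* and 35.6% of those of *Acaa1b*, occur in both, so that reads may have been split between them. Taken as a single feature they had a log2 fold change of -0.25 (adjusted p = 0.0277), and their ratio of 1.81 to 2.05 overlapped between genotypes. *Acaa1a* lost its call in 7 of 12 alternatives, including median-of-ratios scaling and each analysis without a library, and *Acaa1b* in 5, including those without Ctrl replicate 1, Ctrl replicate 2 or cKO replicate 1. *Acaa1a* also shares 290 exon bases with *Myd88* on the opposite strand, and *Acaa1b* 224 with *Dlec1*. *Scp2*, the thiolase for branched chains, was at 347.4 and 356.0 FPKM in Ctrl and 340.6 and 347.2 in cKO (-0.03, adjusted p = 0.730), and 41.4% of its stretches recur in other genes, mostly the pseudogene *Scp2-ps2*.

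**Figure D3:**
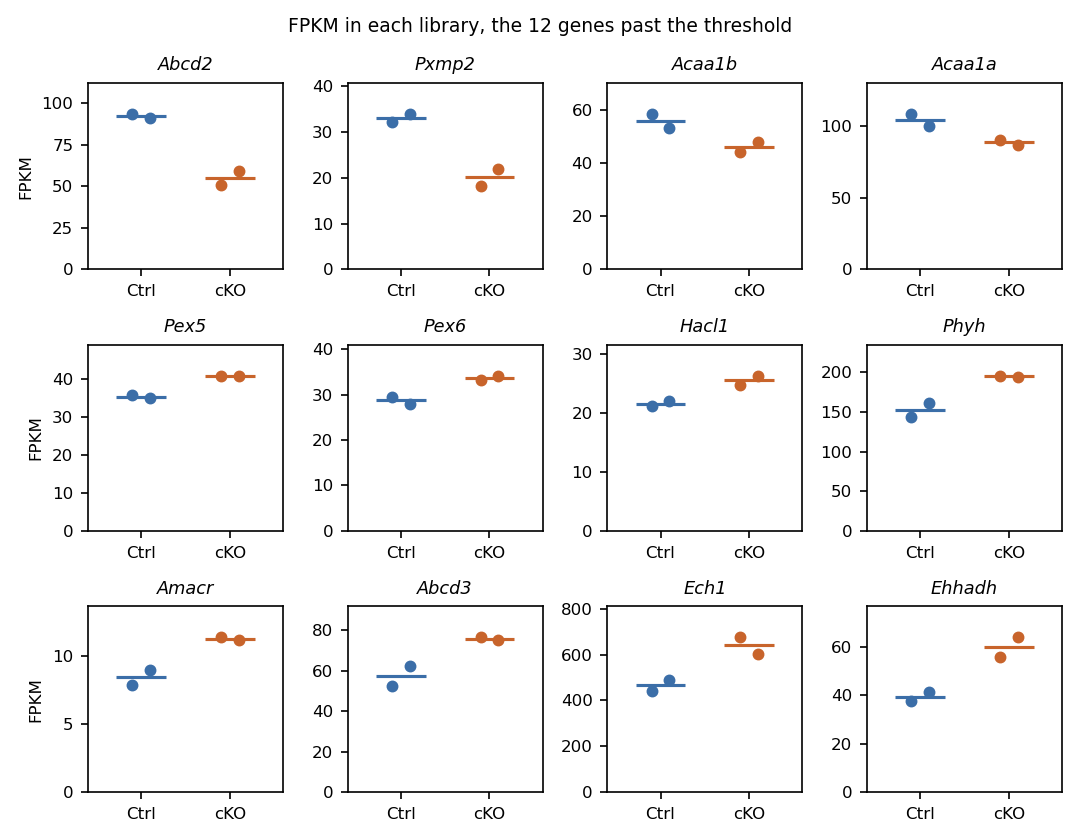
FPKM (vertical axes, from 0) is plotted in each library for the 12 genes past the threshold, with Ctrl and cKO side by side and a bar at each mean of 2 libraries. In each panel the 2 genotypes do not overlap; the step is widest for *Abcd2* and *Pxmp2* and narrow for *Pex5*, *Pex6*, *Acaa1a* and *Acaa1b*.

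Of the 5 genes for auxiliary and export enzymes 2 rose (40.0%, against 12.0% of all genes tested) and 3 did not pass. *Ech1*, the dienoyl-CoA isomerase, was at 442.0 and 488.6 FPKM in Ctrl and at 676.0 and 604.0 in cKO (log2 fold change 0.46 ± 0.09 SE, adjusted p = 0.00865). Both cKO libraries were above both Ctrl libraries. Under quantile normalization the log2 fold change was 0.24 and did not pass, and the call was also lost without Ctrl replicate 1 or Ctrl replicate 2. *Amacr*, the racemase that prepares branched acyl-CoAs for β-oxidation, was at 7.89 and 8.99 FPKM in Ctrl and at 11.4 and 11.2 in cKO (0.38 ± 0.08, adjusted p = 0.0134), on an estimated 363.9 to 503 reads per library. It did not pass without Ctrl replicate 1, cKO replicate 1 or cKO replicate 2. *Eci2*, an enoyl-CoA isomerase, had 0.15 (adjusted p = 0.110), with genotypes that did not overlap. *Crot*, which makes carnitine esters of the shortened chains for export to mitochondria, had 0.04, and *Pecr*, an enoyl-CoA reductase, -0.12. In *Pecr* both cKO libraries (18.4 and 16.2 FPKM) lay below both Ctrl libraries (18.5 and 19.1), narrowly and without passing (adjusted p = 0.285).

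Both of the listed α-oxidation genes rose, where 12.0% of all genes tested rose, and the pathway as a whole was not tested. This pathway removes a single carbon from chains such as phytanic acid, whose branch blocks β-oxidation. *Phyh*, which hydroxylates phytanoyl-CoA at its start, was at 143.9 and 160.8 FPKM in Ctrl and at 196.0 and 194.3 in cKO (log2 fold change 0.36 ± 0.07 SE, adjusted p = 0.00992). *Hacl1*, the lyase that cleaves the product, was at 21.1 and 21.9 FPKM in Ctrl and at 24.7 and 26.3 in cKO (0.23 ± 0.06, adjusted p = 0.0341). Their summed FPKM was 165.0 and 182.8 in Ctrl and 220.7 and 220.6 in cKO, 26.9% higher. *Phyh* lost its call without Ctrl replicate 1 or cKO replicate 1, and *Hacl1* whichever of the 4 libraries was left out. The value of *Hacl1* is uncertain, since 55.6% of its stretches are shared with *Gm49387*, a gene annotated over the same exons.

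Ether lipid synthesis and hydrogen peroxide breakdown held no gene past the threshold, nor any with an unadjusted limma p under 0.05. *Gnpat*, *Agps* and *Far1*, which start the synthesis of plasmalogens, had log2 fold changes of -0.04, -0.05 and -0.11, with intervals between -0.37 and 0.15 and overlapping genotypes. *Far2*, which like *Far1* makes fatty alcohols, was not tested, at 0.76, 0.39, 0.37 and 0.54 FPKM in Ctrl 1, Ctrl 2, cKO 1 and cKO 2, an estimated 21.6 to 46.3 reads. *Cat* was at 361.6 and 366.8 FPKM in Ctrl and at 347.1 and 342.5 in cKO. The genotypes did not overlap, but the log2 fold change of -0.08 (95% interval -0.22 to 0.06, adjusted p = 0.374) did not pass. Under quantile normalization it was -0.21 and passed (adjusted p = 0.0296).

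**Figure D4:**
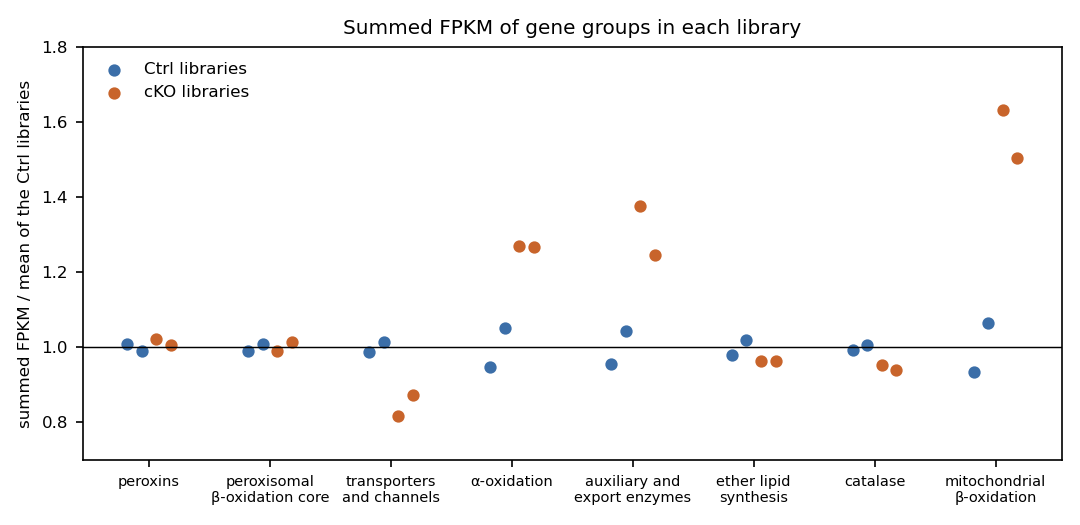
Summed FPKM of each gene group in each library is plotted relative to the mean of the 2 Ctrl libraries (vertical axis, linear). Peroxins and the β-oxidation genes lie near 1, transporters and channels lie below it in cKO, and α-oxidation, auxiliary enzymes and mitochondrial β-oxidation lie above it, the last at a cKO mean of 1.57.

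Mitochondrial β-oxidation, which handles shorter chains with its own set of enzymes, had larger differences between the genotypes than the peroxisomal steps. All 18 of its genes were tested, and 16 rose against 12.0% of all genes, with a median log2 fold change of 0.56. Without Ctrl replicate 1 the number was 8. *Cpt1b*, the muscle and brown fat carnitine acyltransferase, had 1.42 and *Acaa2*, a thiolase, 0.98. *Acadvl*, the very long-chain dehydrogenase, was at 288.8 and 350.6 FPKM in Ctrl and at 681.5 and 596.1 in cKO. *Cpt1a* (0.01) and *Echs1* (0.20) did not pass. Summed FPKM was 4204 and 4789 in Ctrl and 7335 and 6758 in cKO. The ratio of the 7 peroxisomal β-oxidation genes to these 18 was 0.164 and 0.146 in Ctrl and 0.0937 and 0.104 in cKO. It was lower in both cKO libraries, with the smallest exact permutation p possible (0.333). The sum of the 7 differed by 0.136% and that of the 18 was higher in both cKO libraries. Their ratio thus had to fall, and it adds no evidence to the sums.

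For 4 pairs of genes picked for comparison, the ratio of peroxisomal to mitochondrial FPKM was lower in both cKO libraries. The ratio of *Hsd17b4* to *Hadha*, the mitochondrial trifunctional subunit, was 0.617 and 0.539 in Ctrl and 0.316 and 0.355 in cKO. For the thiolases *Acaa1a* and *Acaa2* it was 0.388 and 0.290 in Ctrl and 0.139 and 0.150 in cKO. The ratio of *Ehhadh* to *Hadha* was 0.189 and 0.166 in Ctrl and 0.125 and 0.161 in cKO, where the values of Ctrl 2 and cKO 2 nearly met. That of *Eci2* to its mitochondrial relative *Eci1* was 0.331 and 0.345 in Ctrl and 0.293 and 0.299 in cKO, the smallest change of these 4 ratios (-12.3%). Each ratio follows from the FPKM of its 2 genes and adds no evidence to those values. Not every pair differed this way: the peroxisomal *Decr2* had a log2 fold change of 0.52 and the mitochondrial *Decr1* 0.42. Both were named after their values were seen. Brown and beige adipocyte markers moved with the mitochondrial genes (sums given above), and *Cpt1b* is on both lists. Skeletal muscle markers were lower in cKO, and the part of either cell type in these ratios was not tested.

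Other genes of the peroxisome, listed apart from the 43, showed both directions as well. Of 53 such genes 50 were in the table and 41 were tested, of which 13 rose (31.7%, against 12.0% of all genes) and 5 fell (12.2%, near the 13.8% of all genes), with a median log2 fold change of 0.05. These numbers were 6 and 1 without Ctrl replicate 1, 7 and 2 without Ctrl replicate 2, 7 and 2 without cKO replicate 1, and 13 and 3 without cKO replicate 2. *Slc27a2*, a very long-chain acyl-CoA synthetase and fatty acid transporter, was at 3.78 and 6.21 FPKM in Ctrl and at 26.9 and 20.1 in cKO, a log2 fold change of 2.05 ± 0.20 (SE, adjusted p = 0.000868). *Ide*, a protease with a peroxisomal form, had 0.82, and *Mlycd*, malonyl-CoA decarboxylase, 0.58. *Tysnd1*, the protease that processes imported β-oxidation enzymes, was at 45.98 and 43.14 FPKM in Ctrl and at 68.6 and 64.4 in cKO (0.57, adjusted p = 0.00132), and was named after its values were seen. Those that fell most were *Mvk*, a mevalonate kinase (-0.47), *Paox*, a polyamine oxidase (-0.37), and *Idh1*, the NADPH-making isocitrate dehydrogenase (-0.24).

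**Figure D5:**
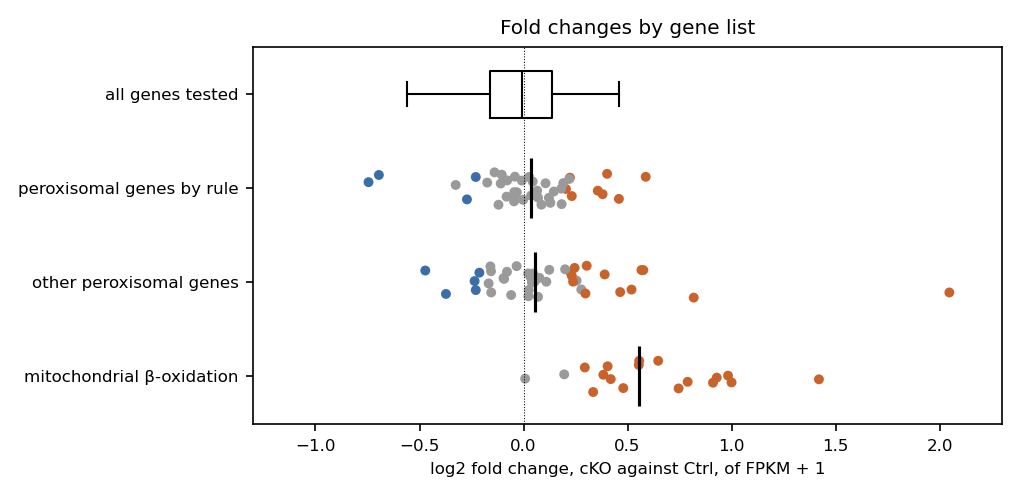
Log2 fold changes of cKO against Ctrl (horizontal axis) are plotted for each gene tested of the 43, of the other peroxisomal genes and of mitochondrial β-oxidation, with the median as a bar and colour for genes past the threshold in either direction. The box for all 12658 genes shows the quartiles, with whiskers to the 5th and 95th percentiles; the medians are 0.04, 0.05 and 0.56 for the lists and -0.01 for all genes.

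The nuclear receptors and coactivators known to act on these pathways were each tested singly and counted as a list of 12 genes, with no test of the list. Of these 5 rose (41.7%, against 12.0% of all genes) and 2 fell (16.7%, near the 13.8% of all genes). *Ppara* was at 7.04 and 9.60 FPKM in Ctrl and at 19.4 and 16.8 in cKO (log2 fold change 1.04 ± 0.13 SE, adjusted p = 0.00206). Its coactivators *Ppargc1a* and *Ppargc1b* had 0.83 and 0.81, *Esrra*, an orphan receptor of mitochondrial genes, 0.30, and *Rxrb* 0.28. *Pparg*, the adipocyte receptor, was at 140.7 and 143.4 FPKM in Ctrl and at 116.3 and 122.6 in cKO (-0.25 ± 0.06, adjusted p = 0.0196). *Rxra*, a partner of both PPARs, was at 42.5 and 39.8 FPKM in Ctrl and at 31.4 and 32.7 in cKO (-0.35 ± 0.06, adjusted p = 0.00689). *Rxrg* (-0.15), *Ppard* (-0.10), *Ncoa1* (-0.01), *Prdm16* (0.09) and *Med1* (0.10) did not pass. *Pparg* stayed the most abundant of the 3 PPAR genes in FPKM in all 4 libraries.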

How the data were processed

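Libraries of polyadenylated RNA were made by the authors from ingWAT of cold-exposed Ctrl and cKO mice and read single-end over 50 bases. Per the labels, the authors' processing notes name mm10, HISAT2 2.0.4 and RSEM 1.2.12, and the deposited table gives FPKM per gene and library. No scaling between libraries is stated, and no per-sample column was left unused. Libraries were assigned by title.

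For the 12658 genes whose FPKM averaged at least 1, log2(FPKM + 1) was compared between genotypes with limma 3.58.1 in R 4.3.3 (eBayes with a trend), Benjamini-Hochberg adjustment and a threshold of 0.05. Fold changes on this scale understate those of low genes. Sums and ratios were tested with exact two-sided permutation tests. Replicate numbers were not treated as pairs (r = 0.0148 between the genotypes' replicate differences). Depth was estimated from the FPKM steps of 299 RNA genes of at most 400 bases. Of the values used, 82.6% to 86.6% were whole reads within 0.1, so counts were not recovered for genes in general and no count test was run. Shared sequence was searched as 50-base stretches in GENCODE transcripts. The fit was tested on simulated data. Other steps ran in Python 3.11.15 (numpy 2.4.6, pandas 2.3.3, matplotlib 3.10.9).

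The genes and lists were chosen with earlier results of these data known. By rule, values in every library are printed for those of the 43 genes past the threshold that fell or changed by at least 0.5, and the 3 genes per direction that moved most are named from other lists. Library values of the further genes were added after their values were seen. Some of the 43 genes are counted but not reported singly here, and they are left out of the sums over roles. Alternatives changed the filter (none, or 5 FPKM on average), the pseudocount (0.1), the scaling (median of ratios, or quantiles), the variance model (no trend) and the design (replicate block), summed *Acaa1a* and *Acaa1b*, or left out each library in turn.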

Additional observations from a re-analysis of the deposited data

How the results depend on the processing

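With 2 libraries per genotype, the number of calls depended on the libraries, on the variance model and on whether low values were filtered. A library left alone in its genotype was assumed to vary like the other genotype. The cause of each lost call was not tested. Depth limited *Far2*, *Pex5l* and *Acox2*, and shared sequence limited *Hacl1*, *Pex11g*, *Scp2*, *Pex14* and the *Acaa1* genes.

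Without a filter, 667 genes were higher and 1095 lower, with 1 and 2 among the 43 genes and 8 and 3 among the other peroxisomal genes. Without a trend of the variance the calls were 5 and 2 among the 43 genes and 8 and 2 among the other peroxisomal genes. With 1 library left out, genes called higher ranged from 358 to 1071 over all genes, from 0 to 4 among the 43, from 6 to 13 among the other peroxisomal genes and from 8 to 16 in mitochondrial β-oxidation. Genes called lower ranged from 519 to 1434, from 2 to 3 and from 1 to 3 in the first 3 of these lists, and remained 0 in the last.

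Log2 fold changes of genes not past the threshold turned sign in 14 cases among the genes named. Under median-of-ratios scaling *Pex10* was 0.0073 and *Pex19* was 0.015, and under quantile normalization *Pex10* was 0.025 and *Pex19* was 0.042. The log2 fold changes that turned with a library left out, given as the range over the 4 libraries, were -0.091 to 4.7e-06 for *Agps* (turned without cKO replicate 1), -0.0069 to 0.095 for *Crot* (turned without Ctrl replicate 1), -0.28 to 0.059 for *Far1* (turned without cKO replicate 1), -0.11 to 0.093 for *Pex10* (turned without Ctrl replicate 1 and cKO replicate 2), -0.019 to 0.015 for *Pex19* (turned without Ctrl replicate 2 and cKO replicate 2), -0.11 to 0.022 for *Pex2* (turned without cKO replicate 1), -0.012 to 0.22 for *Pex26* (turned without Ctrl replicate 1) and -0.052 to 0.12 for *Pex7* (turned without Ctrl replicate 2). None of the 12 genes of the 43 past the threshold turned sign in any alternative run.

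With the replicate number as a block, 8 of the 43 genes were higher and 5 lower, *Pex11g* being the addition (adjusted p = 0.0169). The replicate differences of the genotypes had a correlation of r = 0.0148 over genes. This cannot show whether same-numbered libraries were matched in some way, which the sources used here do not state. The block gave 1594 higher and 1789 lower genes over all, 12 and 5 among the other peroxisomal genes, and 16 and 0 in mitochondrial β-oxidation.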
